A study of Vitis vinifera with 16 samples.

Results

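The step from véraison to mid-ripening was examined in berries of the white grape Muscat Blanc à Petits Grains, as the change from stage E-L35 (berries beginning to colour and enlarge) to stage E-L36 (berries of intermediate sugar content). The samples were chosen by their stage labels alone, which gave 8 of the 16 samples of the series, with 4 at E-L35 and 4 at E-L36. Each stage was represented by 1 sample from Changli (CL, eastern China) and 1 from Gaotai (GT, north-western China) in each of the vintages 2010 and 2011. All vines were of the same cultivar, no treatment is named for any of them, the CL vines were younger than the GT vines, and each sample was a pool of deseeded berries, so that skin and flesh were measured together. RNA-seq gave a read count and an RPKM (reads per kilobase of transcript, scaled to the mapped reads of the library) for each of 23984 RefSeq transcripts.

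Véraison is the onset of ripening in the grape berry. Growth by cell division has ended by then, the flesh softens, sugar is stored in the vacuoles, acids decline and, in aromatic cultivars, terpenes and their glycosides begin to accumulate. In plants the precursors of terpenes come from the plastid MEP pathway, the main source for monoterpenes, and from the cytosolic mevalonate (MVA) pathway, the main source for sesquiterpenes and sterols. Terpene synthases form the volatile compounds, and UDP-glycosyltransferases attach sugars to them.

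Summed over the libraries of a sample, the E-L35 samples held 10080161 to 26627006 counts and the E-L36 samples 4698604 to 22917077, with the fewest in the CL sample of 2011. The E-L35 samples had 2 libraries each and the E-L36 samples 1, so that the number of libraries and the stage cannot be told apart. The first E-L35 library of each sample alone gave 549 transcripts that fell and 176 that rose. The second alone gave 418 and 103, against 562 and 151 for the sum. The study states that single libraries were made because little RNA of high quality was obtained. RNA amount and quality therefore cannot be told apart from the stage either, and their effect was not tested. The 10 most abundant transcripts took 8.82 to 16.4% of the counts at E-L35 and 18.2 to 25.4% at E-L36. With scaling to the library total in place of TMM (edgeR's trimmed mean scaling), the log2 ratio of the median transcript was -0.30, so ratios below are relative to the median transcript. One E-L36 sample was nearer to E-L35 than to its own stage. The CL sample of 2011 labelled E-L36 differed from the E-L35 samples by a mean root-mean-square log2 difference of 0.547. From the other E-L36 samples it differed by 0.612, whereas each of the other 3 E-L36 samples was nearer to its own stage than to E-L35. Their distances to their own stage were similar, at 0.609 (CL 2010), 0.626 (GT 2010) and 0.601 (GT 2011). The CL and GT samples of 2010 were slightly nearer to E-L38, at 0.605 and 0.620. Of the berries' tissue markers, only 2 photosystem transcripts could be matched by name, and neither seed storage, cell division nor cuticle transcripts, so the tissue was not checked further. The photosystem II transcripts PSBP1 and PSBP2 had log2 ratios of -0.36 ± 0.29 and -0.47 ± 0.19 (SE), with adjusted p-values of 0.464 and 0.167.

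More transcripts fell than rose in this step. Of 17190 transcripts tested (at least 10 counts in at least 4 of the 8 samples), 562 fell, or 3.27%, and 151 rose, or 0.878%, by edgeR's quasi-likelihood test with region and vintage as blocks, where a call needed a Benjamini-Hochberg adjusted p up to 0.05 and a change of 1 or more on the log2 scale. Both directions made up 4.15% of the transcripts tested, and 7.53% passed the adjusted p alone. The fall was at least 4-fold (a log2 ratio of at most -2) for 189 of the 562, and the rise was at least 4-fold for 44 of the 151. All 562 transcripts that fell did so in each of the 4 pairs of a region and a vintage, and 148 of the 151 rose in each of them, whereas 36.0% of all tested transcripts moved 1 way in all 4 pairs. The 4 values of each stage did not overlap for 435 of the transcripts that fell and for 77 of those that rose, against 11.5% of all tested transcripts. The calls were made on these same samples, so the counts of pairs and of overlap follow in large part from the selection. They are no separate support for the calls. When ratios were scaled to library totals, 1314 transcripts fell and 126 rose, so that the share of rises among the calls was 8.75% in place of 21.2%.

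**Figure D1:**
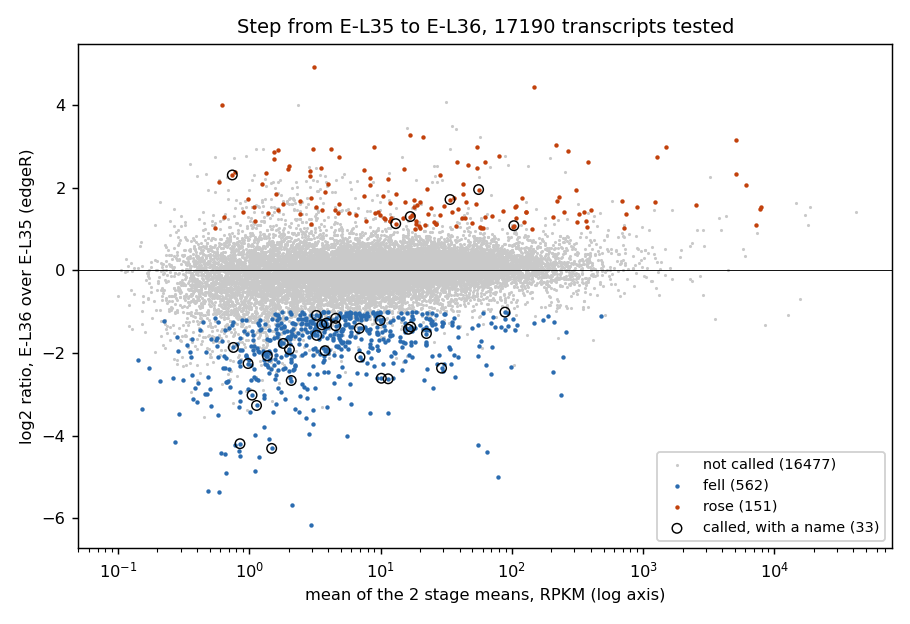
Log2 ratio of E-L36 over E-L35 (edgeR) against the mean of both stage means in RPKM on a log axis, with 1 point per transcript tested. The 562 transcripts that fell lie mostly at low and middle levels, and 6 of the 151 that rose reached at least 5000 RPKM at E-L36; circles mark the 33 called transcripts with a name.

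The transcripts that fell were scarcer than those that rose. Their median level was 5.70 RPKM at E-L35 and 1.58 at E-L36, and together they took 1.43 to 2.22% of the counts of a sample at E-L35 and 0.3 to 0.732% at E-L36. The transcripts that rose had medians of 13.5 and 27.9 RPKM and took 1.79 to 4.72% of the counts at E-L35 and 5.83 to 10.2% at E-L36. The median transcript of all tested had 10.2 and 8.03 RPKM. At least 1000 RPKM were reached at E-L36 by 11 of the transcripts that rose, and at E-L35 by 0 of those that fell. The median length of the transcripts was 1668.5 bases among those that fell, 1216 among those that rose and 1536 among all tested. Levels are scaled to the library total, and in whole berries fewer cells of a type and less RNA per cell cannot be told apart.

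The 4 pairs did not move by the same amount. The median log2 ratio of the 562 transcripts that fell was -1.58 in CL and -1.55 in GT in 2010. In 2011 it was -1.04 in CL and -1.34 in GT, so the pair with the E-L36 sample nearer to E-L35 showed the smallest fall. That of the 151 transcripts that rose was 1.30 in CL and 1.30 in GT in 2010, and 1.17 in CL and 1.78 in GT in 2011. Without the CL sample of 2011 labelled E-L36, 807 transcripts fell and 278 rose. The counts depended on single samples. Leaving out the E-L35 sample of CL or of GT in 2010 gave 0 calls by edgeR (3789 and 3205 transcripts at an unadjusted p under 0.05, against 4653 with all 8 samples), and leaving out that of GT in 2011 gave 11 that fell and 4 that rose. Without the remaining E-L35 sample, CL in 2011, 228 fell and 47 rose, and without the E-L36 samples of CL 2010, GT 2010 and GT 2011 in turn 42, 198 and 318 fell and 18, 97 and 83 rose. By region, neither the 4 CL samples nor the 4 GT samples alone gave a call, with 2921 and 4012 transcripts at an unadjusted p under 0.05, and by vintage 206 fell and 47 rose in 2010 against 0 and 1 in 2011.

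The changed transcripts were then followed in the samples of the other stages, E-L31 (green berries) and E-L38 (harvest-ripe berries), which had no part in the step. Of the 548 transcripts that fell in the step and could be tested, 506, or 92.3%, were lower at E-L38 than at E-L31 by the same limits, and 0 were higher, against 15.1% lower and 7.8% higher of all 17210 transcripts tested there. Of the 150 that rose and could be tested, 123, or 82.0%, were higher at E-L38 and 0 were lower. The median level of the transcripts that fell was 13.4 RPKM in E-L31 samples and 1.07 in E-L38 samples, and that of those that rose was 6.4 and 46. Seen the other way, the 506 were 19.5% of the transcripts that fell from E-L31 to E-L38 and the 123 were 9.16% of those that rose. The GT sample of 2011 labelled E-L31 was nearer to the E-L35 samples (a mean log2 difference of 0.538) than to its own stage (0.953). Without it, 496 of the transcripts that fell in the step were lower at E-L38 and 130 of those that rose were higher. The step before, E-L35 over E-L31, gave 24 falls (0.136% of 17640 transcripts) and 0 rises by edgeR (0.0%), with 4196 transcripts at an unadjusted p under 0.05, and without that sample 1522 falls and 865 rises. By DESeq2 it gave 1107 and 488. The step after, E-L38 over E-L36, gave 6 falls (0.0361% of 16640) and 4 rises (0.024%) and by DESeq2 417 and 159. Both neighbouring steps share samples with the step, and the differences between the counts were not tested.

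**Figure D2:**
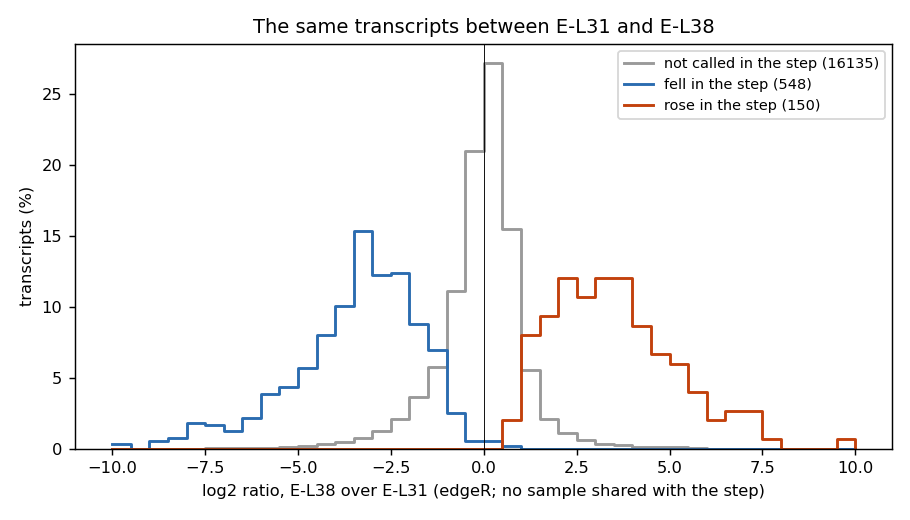
Share of transcripts in bins of 0.5 of the log2 change between the E-L31 and E-L38 samples, for transcripts that fell (548), rose (150) or were not called (16135) in the step from E-L35 to E-L36. No sample is shared between the axis and the grouping; transcripts that fell had a median of -3.17 and those that rose a median of 3.28, against 0.03 for all transcripts tested there.

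A name was at hand for 430 of the 23984 transcripts, from the lists of the study and the symbols of the RefSeq annotation, and 313 of these were tested. Of them 27 fell (8.63%, against 3.27% of all tested transcripts) and 6 rose (1.92%, against 0.878%). Because the study chose many of its lists on these same samples, their counts are no independent evidence of a direction. Of the 203 listed transcription factors tested, 17 fell (8.37%, against 3.27% of all tested transcripts) and 1 rose (0.493%, against 0.878%), with a median log2 ratio of -0.31 beside 0.00 for all tested transcripts. Values below are in the order CL 2010, GT 2010, CL 2011 and GT 2011, in RPKM, unless stated otherwise. The 33 named transcripts were chosen as calls on these same samples, so a kept direction is no separate support. All 33 kept their direction in every alternative fit, and all 33 were called without the CL sample of 2011 labelled E-L36. None was called by edgeR without the E-L35 sample of CL 2010, GT 2010 or GT 2011, 13 were without that of CL 2011, and 3, 10 and 14 were without the E-L36 sample of CL 2010, GT 2010 or GT 2011.

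**Figure D3:**
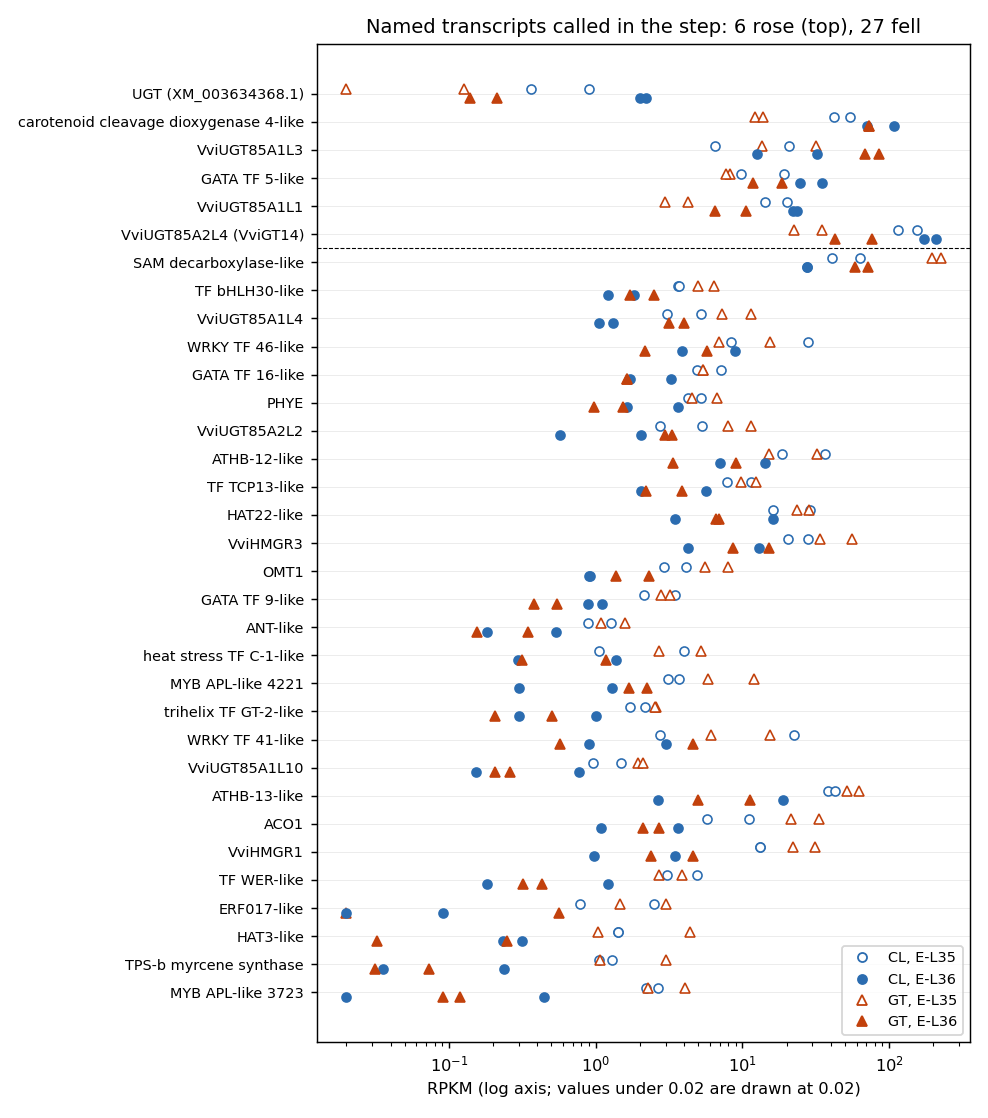
RPKM on a log axis of the 33 named transcripts called in the step, with 1 point per sample (open symbols E-L35, filled symbols E-L36, circles CL, triangles GT). Of the 27 that fell, 19 had no overlap between the stages after TMM scaling, against 435 of all 562 that fell. Of the 6 that rose, only the carotenoid cleavage dioxygenase 4-like transcript had none, against 77 of all 151 that rose. Among all tested transcripts 11.5% had none.

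Among the transcripts of terpene precursors, 2 of the 5 tested on the MVA list fell (40%, against 3.27% of all tested transcripts). Both encode HMG-CoA reductase, the enzyme that commits carbon to mevalonate. VviHMGR1 (XM_002265602.1) had 13.2, 22.2, 13.3 and 31.4 RPKM at E-L35 and 0.980, 2.38, 3.47 and 4.60 at E-L36. Every E-L36 value lay below every E-L35 value, and the 2 GT samples were above the CL samples of the same vintage at both stages. The log2 ratio was -2.63 ± 0.26 (SE, adjusted p = 0.0129), a 6.18-fold fall. The transcript XM_002275791.2, which the study's gene list names VviHMGR3 and its text VviHMGR2, had 20.5, 33.6, 28.1 and 55.8 at E-L35 and 4.26, 8.68, 12.9 and 15.2 at E-L36, again without overlap, and its log2 ratio was -1.53 ± 0.16 (adjusted p = 0.0132). The third reductase transcript, XM_002283147.2, named VviHMGR2 in the gene list, had a log2 ratio of 0.06 ± 0.16 (adjusted p = 0.846), and the 2 acetyl-CoA acetyltransferases of the first step (XM_002265654.2 and XM_003635348.1) had 0.08 ± 0.12 and 0.36 ± 0.20, without a call. By region, the ratios were -2.63 in CL and -2.60 in GT for VviHMGR1 and -1.51 and -1.53 for XM_002275791.2, and the differences between the regions were 0.06 ± 0.53 and -0.00 ± 0.36.

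No transcript of the MEP pathway was called, of 6 tested. VviHDR (XM_002284623.2), for the reductase that ends the pathway, was also the second most abundant named transcript of these samples, with 605, 322, 509 and 303 RPKM at E-L35 and 668, 426, 669 and 512 at E-L36. It was higher at E-L36 in all 4 pairs, yet the ranges of the stages overlapped, and the log2 ratio of 0.74 ± 0.19 had an adjusted p of 0.0585. VviDXS (XM_002277883.2), for the first enzyme, and VviDXR (XM_002282725.1), for the second, had ratios of 0.13 ± 0.18 and -0.08 ± 0.13. The prenyl diphosphate synthases VviGPPS (XM_002268193.2) and VviFPPS (XM_002272605.2), which join the 5-carbon units, had 0.25 ± 0.10 and -0.30 ± 0.16 without a call. The medians of the MEP and MVA lists were 0.10 and 0.06 and, when scaled to library totals, -0.20 and -0.24.

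Of the study's listed terpene synthases, the 31 with an accession among these transcripts were followed here. The others, which the study mapped to a separate set of terpene synthase sequences, were not analysed here. Of the 31, 4 had the counts to be tested, and 1 of these, a TPS-b myrcene synthase (XM_003634850.1), fell (25%, against 3.27% of all tested transcripts). Its counts were 68, 111, 41 and 19 at E-L35 and 1, 1, 2 and 3 at E-L36, which is 1.29, 3.01, 1.05 and 1.08 RPKM against 0.0353, 0.0314, 0.236 and 0.0726. The transcript was already scarce at E-L35, after a mean of 21.4 RPKM at E-L31, and the log2 ratio was -4.20 ± 0.61 (adjusted p = 0.0184). At such counts the size of the ratio depends on single reads.

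Of 16 tested transcripts of the UGT families chosen by homology, 3 rose and 3 fell (18.8% each, against 0.878 and 3.27% of all tested transcripts), and the other 10 were not called, with a median log2 ratio of -0.04. VviUGT85A2L4 (XM_002285734.2), also named VviGT14, whose enzyme adds glucose to monoterpenols in grape, had 115, 22.5, 154 and 35.1 RPKM at E-L35 and 172, 42.8, 210 and 76.9 at E-L36. It was higher at E-L36 in each pair, while the CL values lay far above the GT values at both stages, so that the ranges of the stages overlapped. The log2 ratio was 1.08 ± 0.21 (adjusted p = 0.0309), at 0.72 in CL and 1.42 in GT, with a difference of 0.72 ± 0.34 (adjusted p = 0.666). VviUGT85A1L1 (XM_002285742.2) showed the same order of regions, from 14.3, 2.95, 20.2 and 4.28 to 22.2, 6.47, 23.5 and 10.6, with a log2 ratio of 1.13 ± 0.26 (adjusted p = 0.0424). VviUGT85A1L3 (XM_002268601.2) was higher in GT than in CL in each vintage, and rose from 20.7, 32, 6.47 and 13.5 to 32.4, 84.9, 12.5 and 68.2, with a log2 ratio of 1.71 ± 0.37 (adjusted p = 0.0387). On reads mapped to 1 transcript only, which are 92.8 and 92.9% of the reads of the first 2 and all reads of the third, all 3 were called.

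The UGT transcripts that fell were scarce. VviUGT85A2L2 (XM_003635250.1) had 2.75, 7.97, 5.31 and 11.5 RPKM at E-L35 and 0.572, 2.98, 2.04 and 3.29 at E-L36, with a log2 ratio of -1.34 ± 0.22 (adjusted p = 0.0222). VviUGT85A1L4 (XM_003635486.1) moved likewise, with -1.16 ± 0.18 (adjusted p = 0.0199). Reads of these 2 are shared with close copies, since only 51.9 and 64.2% of them were unique, so their single values are uncertain, but unique reads alone gave -1.26 and -1.28 with adjusted p-values of 0.0281 and 0.0134. VviUGT85A1L10 (XM_002280993.2) had 0.952 to 2.09 RPKM at E-L35 and 0.153 to 0.769 at E-L36, with a log2 ratio of -2.26 ± 0.47 (adjusted p = 0.0349, and 0.0503 with the region and vintage pairs as the block). Of the 15 UGT transcripts tested from the clusters that the study picked as rising on these samples, 1 rose (6.67%, against 0.878% of all tested transcripts). This was XM_003634368.1, which had at most 2.22 RPKM in any sample (log2 ratio 2.31 ± 0.50, adjusted p = 0.0380, and 0.0512 with the pairs as the block). VviUGT88A1L3 (XM_002276510.1), known as VviGT7, and VviUGT88A1L4 (XM_002281477.2), known as VviGT15, which also act on monoterpenols in grape, had 0.33 ± 0.24 and -0.49 ± 0.18 without a call.

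**Figure D4:**
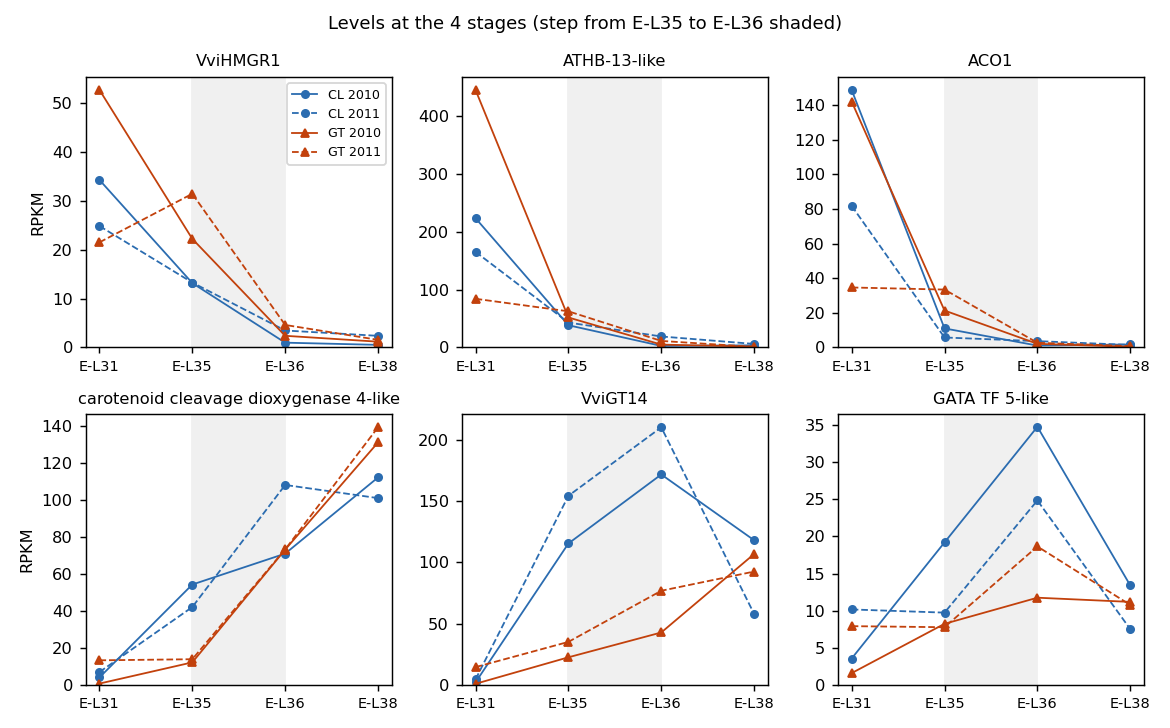
RPKM at the 4 stages of 6 transcripts called in the step, with 1 line per region and vintage and the step shaded. VviHMGR1, the ATHB-13-like transcript and ACO1 had fallen to at most 19.0 RPKM at E-L36, whereas the carotenoid cleavage dioxygenase 4-like, VviGT14 and GATA 5-like transcripts rose.

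Carotenoids are broken down during ripening, and abscisic acid, the hormone that promotes ripening in the grape berry, is made from them. The carotenoid cleavage dioxygenase 4-like transcript (XM_002270125.1), whose enzyme cuts carotenoids into volatile fragments, had 54.1, 12.1, 42.0 and 13.8 RPKM at E-L35 and 70.8, 73.0, 108 and 73.1 at E-L36. At E-L35 both CL samples lay above both GT samples, and at E-L36 the 4 samples lay closer together, above every E-L35 value. The log2 ratio was 1.95 ± 0.39 (adjusted p = 0.0309). It was 1.08 in CL and 2.87 in GT, and the difference of 1.82 ± 0.30 was not called by edgeR (adjusted p = 0.298) but was by DESeq2 (1.81, adjusted p = 0.000525). A phytoene synthase (XM_002271539.2), which makes the first carotenoid, went from 13.2, 26, 21.8 and 43.4 to 6.67, 11.4, 10.6 and 20.7 and passed the adjusted p but not the limit of the ratio, at -0.80 ± 0.13 (adjusted p = 0.0216). The second phytoene synthase (XM_002283157.2) had 0.01 ± 0.19. Of the 5 transcripts of the abscisic acid response, such as the receptor PYR1-like (XM_002280325.1) at 0.63 ± 0.27, 0 were called. EdgeR gave 2 of them an unadjusted p under 0.05, against 4653 of all 17190 tested transcripts.

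For ethylene, the hormone of climacteric fruit, the transcript of ACO1 (XM_002273394.2), the oxidase that makes it, fell. It had 11, 21.3, 5.77 and 33.5 RPKM at E-L35 and 1.09, 2.11, 3.66 and 2.71 at E-L36. The stages did not overlap, and the log2 ratio was -2.61 ± 0.43 (adjusted p = 0.0222), a 6.12-fold fall. A second oxidase transcript, ACO1-like (XM_002279710.2), had 0.46 ± 0.47, with 19.2 to 109 RPKM at E-L36, so the copies did not move together. Of the polyamine transcripts, a SAM decarboxylase-like transcript (XM_002272143.2), whose enzyme supplies the aminopropyl group of spermidine, had 40.6, 225, 62.9 and 195 at E-L35 and 27.6, 58.9, 27.5 and 72.3 at E-L36. The GT values were the higher ones at both stages, the ranges overlapped, and the log2 ratio was -1.01 ± 0.20 (adjusted p = 0.0318). The more abundant SAM decarboxylase XM_003631291.1 had 0.18 ± 0.19, and XM_002282668.2, of whose reads only 2.29% were unique, so that its own value is uncertain, had 0.10 ± 0.16. Of 10 transcripts of the ethylene response list 0 were called by edgeR, with a median of -0.16. An unadjusted p under 0.05 was found for 1 of them, against 4653 of all 17190 tested transcripts.

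The HD-Zip factors, plant regulators that join a homeodomain to a leucine zipper, held 4 falls and no rise among 22 tested, or 18.2% that fell against 3.27% of all tested transcripts. The ATHB-13-like transcript (XM_002276853.1) was the most abundant of the 4 that fell, with 38.4, 51.8, 43.0 and 62.4 RPKM at E-L35 and 2.67, 4.95, 19.0 and 11.3 at E-L36. Its E-L36 values were lower in 2010 than in 2011, without overlap with E-L35, and the log2 ratio was -2.37 ± 0.38 (adjusted p = 0.0217). The ATHB-12-like transcript (XM_002280012.1), related to an Arabidopsis factor induced by abscisic acid, had 18.5, 15.3, 36.3 and 32.2 at E-L35 and 7.03, 3.35, 14.3 and 9.05 at E-L36, with a log2 ratio of -1.37 ± 0.18 (adjusted p = 0.0161). HAT22-like (XM_002271475.2) fell by 1.43 ± 0.28 on the log2 scale, from 16.1 to 29.0 RPKM at E-L35 down to 3.48 to 16.2. HAT3-like (XM_002272716.2), related to an Arabidopsis factor of leaf polarity and shade response, fell by 3.27 ± 0.53 on the log2 scale, from at most 4.39 RPKM. In HAT14-like (XM_002268142.1) the regions parted, with 18.2, 10.8, 30.0 and 16.3 at E-L35 and 20.4, 48.0, 22.7 and 47.4 at E-L36. It was higher at E-L36 in both GT pairs, with log2 ratios of 0.11 in CL and 2.23 in GT, and edgeR called neither the step (adjusted p = 0.146) nor the difference of 2.13 ± 0.31 (adjusted p = 0.260), whereas DESeq2 called the difference (2.12, adjusted p = 8.99e-05).

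In 2 WRKY factors, a family of regulators of defence and stress responses, the fall ran beside a difference of vintages. The WRKY 41-like transcript (XM_002272684.1) had 2.73, 6.14, 22.5 and 15.4 RPKM at E-L35 and 0.897, 0.570, 3 and 4.60 at E-L36, with a log2 ratio of -2.10 ± 0.37 (adjusted p = 0.0247). The WRKY 46-like transcript (XM_002280995.1) had 8.42, 6.96, 28.1 and 15.4 at E-L35 and 3.87, 2.16, 8.94 and 5.75 at E-L36, with -1.22 ± 0.15 (adjusted p = 0.0161). Both were higher in 2011 than in 2010 at each stage and in each region, so their ranges overlapped, but each pair fell. They were 2 of 19 tested (10.5%, against 3.27% of all tested transcripts), and WRKY 11-like (XM_002262739.2) passed the adjusted p alone at -0.80 ± 0.18.

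The GATA factors, zinc finger regulators often tied to light and nitrogen responses, held 1 rise and 2 falls among 10, where 0.878% of all tested transcripts rose and 3.27% fell. The GATA 5-like transcript (XM_002272726.1) had 19.2, 8.22, 9.73 and 7.76 RPKM at E-L35 and 34.8, 11.7, 24.9 and 18.6 at E-L36. It was the only listed transcription factor that rose (log2 ratio 1.30 ± 0.29, adjusted p = 0.0413), with overlapping ranges because the E-L35 value of CL in 2010 was high. The GATA 16-like (XM_002275462.2) and GATA 9-like (XM_002282189.2) transcripts fell without overlap, with log2 ratios of -1.28 ± 0.24 and -1.77 ± 0.32, from at most 7.15 and 3.48 RPKM. In the samples the step did not use, the GATA 5-like transcript was not called (1.44 for E-L38 over E-L31, adjusted p = 0.0907), and its mean was 22.5 RPKM at E-L36 and 10.7 at E-L38.

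Of the 9 tested transcripts on the MYB list 2 fell (22.2%, against 3.27% of all tested transcripts), both related to APL, the Arabidopsis factor of phloem identity. The APL-like transcript XM_002264221.2 had 3.71, 12, 3.10 and 5.84 RPKM at E-L35 and 0.301, 1.69, 1.30 and 2.24 at E-L36 (log2 ratio -1.95 ± 0.41, adjusted p = 0.0361), and XM_002283723.2 had 20 to 32 counts at E-L35 and at most 1 at E-L36 (-4.31 ± 0.59, adjusted p = 0.0172). The TCP 13-like transcript (XM_002277038.2), from the family that limits growth in leaves, had 7.86, 9.85, 11.4 and 12.3 at E-L35 and 2.04, 2.22, 5.69 and 3.86 at E-L36 (-1.41 ± 0.20, adjusted p = 0.0174). All 11 TCP factors tested had ratios below 0, with a median of -0.55, where 8644 of all 17190 tested transcripts had ratios below 0. Of the 11, 1 was called (9.09%, against 3.27% of all tested transcripts), and 2 more, TCP 7-like (XM_002268022.2) and TCP 8-like (XM_002264076.2), passed the adjusted p alone at -0.99 and -0.82. The ANT-like transcript (XM_002285431.2), related to the AP2 factor that sustains organ growth in Arabidopsis, fell from at most 1.58 RPKM with a log2 ratio of -1.87 ± 0.40, and a WER-like MYB (XM_002279092.2), related to an Arabidopsis factor of epidermal patterning, from at most 4.92 RPKM with -2.67 ± 0.49. A trihelix GT-2-like factor (XM_002277271.2) fell as well (-2.07 ± 0.43), as did the heat stress factor C-1-like (XM_002280992.1, -1.92 ± 0.33) and bHLH 30-like (XM_002280038.1, -1.09 ± 0.20), from at most 6.41 RPKM each.

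The shares called in the larger families lay near those of all tested transcripts, of which 3.27% fell. The 31 bHLH factors tested had a median log2 ratio of -0.62 with 1 fall (3.23%), and the 41 ERF and AP2 factors a median of -0.63 with 2 falls (4.88%), the second of which was ERF017-like (XM_002277585.1) at -3.02 ± 0.67 (adjusted p = 0.0404, and 0.0592 with the pairs as the block), with 0 counts in 2 of the 4 E-L36 samples. By edgeR, an unadjusted p under 0.05 was found for 18 of the 41 ERF and AP2 factors and for 16 of the 31 bHLH factors. The same held for 4653 of all 17190 tested transcripts. Of 10 NF-Y factors tested 0 were called, 4 had an unadjusted p under 0.05 by edgeR, and NF-Y B-8-like (XM_002275446.2) passed the adjusted p alone with 0.82 ± 0.16. VviMYBA2 (XM_002265012.1), a relative of the regulators of berry colour, had 44.5, 47.6, 6.76 and 13.7 RPKM at E-L35 and 80.1, 73.9, 52.9 and 128 at E-L36. The stages did not overlap and all 4 pairs were higher at E-L36, but the log2 ratio of 2.25 ± 0.56 had an adjusted p of 0.0544.

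**Figure D5:**
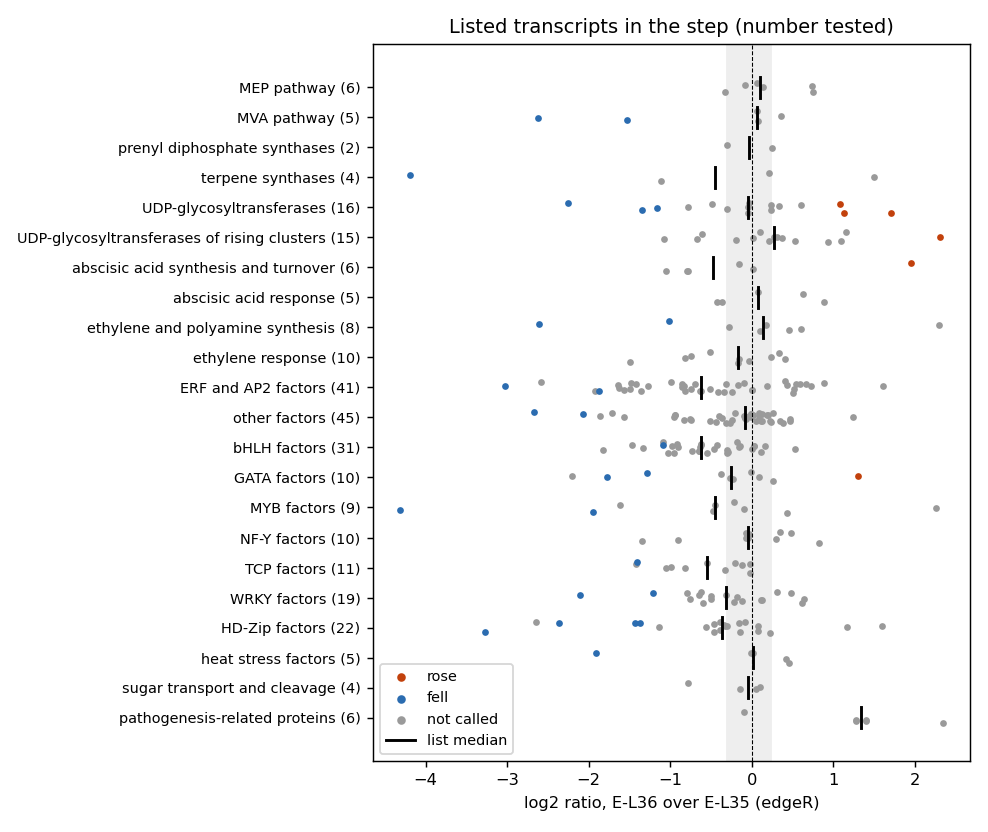
Log2 ratio of E-L36 over E-L35 (edgeR) of every tested member of each list, with 1 point per transcript, a bar at the list median and the interquartile range of all tested transcripts shaded. Most listed factors lie left of the median transcript (dashed line, 0.00), and the pathogenesis-related list has the highest median, 1.34, without a call.

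Outside these lists, PHYE (XM_002271635.2), a red and far-red light receptor, fell from 4.29, 4.57, 5.27 and 6.67 RPKM to 1.64, 0.973, 3.66 and 1.54 (log2 ratio -1.32 ± 0.25, adjusted p = 0.0286), while its relative PHYA (XM_002278574.2) had 0.34 ± 0.19. The methyltransferase transcript OMT1 (XM_002277566.2) fell by 1.58 ± 0.30 on the log2 scale, from 2.91 to 8 RPKM at E-L35 down to 0.907 to 2.30. The most abundant named transcript, PL1 (XM_002285603.2), for a pectate lyase that cuts pectin in the cell wall, had 677, 697, 1005 and 1067 at E-L35 and 323, 311, 599 and 663 at E-L36. It was lower in each pair and higher in 2011 than in 2010, but with -0.62 ± 0.18 (adjusted p = 0.0737) it was not called. Of the sugar transporters, TMT2 (XM_002282939.1), which loads sugars into the vacuole, had -0.78 ± 0.23 (adjusted p = 0.0786) and the 3 transcripts of the sucrose transporter SUC12, whose reads are mostly not unique, had -0.14 to 0.10. The transcript of the ethylene-responsive factor ERF003-like (XM_002285337.1), also among the 5 most abundant with a name, had 0.52 ± 0.16 (adjusted p = 0.0851).

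The 6 tested PR10 transcripts, which encode pathogenesis-related proteins, had a median log2 ratio of 1.34, and 0 were called by edgeR. Of the 6, 4 had an unadjusted p under 0.05, against 4653 of all 17190 tested transcripts. The spread between pairs was wide. PR10.2 (XM_002274206.2) had 360, 225, 243 and 118 RPKM at E-L35 and 556, 1706, 139 and 389 at E-L36, so it was higher at E-L36 in both GT pairs and lower in the CL pair of 2011. Its log2 ratio was 1.40 ± 0.58 (adjusted p = 0.174), at 0.16 in CL and 2.63 in GT. PR10.5 (XM_002273946.2) had 2.52, 17.3, 0.609 and 2.07 at E-L35 and 6.37, 24.6, 9.22 and 29.5 at E-L36, with 2.35 ± 0.59 (adjusted p = 0.0552).

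Among transcripts without a name that reached a mean of at least 5 RPKM in the higher stage and moved 1 way in all 4 pairs, the 2 largest rises and the 2 largest falls were larger than any named one. XM_002274511.1 rose from 70.9, 32, 2.20 and 5.38 RPKM to 493, 205, 152 and 226, with higher values in 2010 at E-L35, a log2 ratio of 4.44 ± 0.84 and an adjusted p of 0.0285. XM_003632193.1 rose by 3.28 ± 0.70 (adjusted p = 0.0379). XM_002285161.2 fell from 119, 161, 95.1 and 228 RPKM to 0.232, 1.93, 3.11 and 17.9 (log2 ratio -5.00 ± 0.78, adjusted p = 0.0206), so that 3 of the 4 E-L36 samples had under 4 RPKM and the GT sample of 2011 kept more. XM_002277104.2 fell by 6.17 ± 0.40 on the log2 scale (adjusted p = 0.0107), with 37, 321, 11 and 48 counts at E-L35 and 0, 3, 0 and 1 at E-L36.

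Whether the step differed between the regions was tested by the interaction of stage and region. EdgeR called 0 of 17190 transcripts (0.0%), with 1326 at an unadjusted p under 0.05 and a smallest adjusted p of 0.214, and DESeq2 called 102 with a larger log2 ratio in GT and 48 with a smaller one. Of the 33 named transcripts the ratio was larger in size in GT than in CL for 18 of the 27 that fell and for 5 of the 6 that rose. None of these differences was called by edgeR, and the same count over all called transcripts was not made. The CL pair of 2011 holds the E-L36 sample nearer to E-L35. Over all transcripts that fell, the pair medians were -1.58 in CL and -1.55 in GT in 2010, and -1.04 and -1.34 in 2011. For those that rose they were 1.30 and 1.30, and 1.17 and 1.78. The named transcripts with the smallest p for a larger ratio in GT were HAT14-like, the ERF 2-like (XM_002270545.2), the carotenoid cleavage dioxygenase 4-like and the NF-Y A-1-like (XR_077959.2) transcripts. ERF 2-like had 37.5, 19.2, 107 and 43.5 RPKM at E-L35 and 21.6, 43.8, 34.5 and 70.1 at E-L36. Its E-L36 value was the lower one in both CL pairs and the higher one in both GT pairs, with a difference of 2.37 ± 0.36 (adjusted p = 0.265). Those for a smaller ratio in GT were TCP 7-like, a UGT (XM_002283003.2), bHLH 62-like (XM_002264933.2) and PHYA, with differences of -1.08 ± 0.21, -1.11 ± 0.23, -1.13 ± 0.26 and -0.85 ± 0.21 and adjusted p-values of 0.385 to 0.449. The interaction of stage and vintage gave 0 calls (0.0%) by edgeR, 542 transcripts at an unadjusted p under 0.05, and by DESeq2 23 calls with a larger ratio in 2011 and 2 with a smaller one.

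In the samples of E-L31 and E-L38, 92.3% of all transcripts that fell in the step and could be tested were lower at E-L38. Of all that rose, 82.0% were higher. The median levels of all that fell were 13.4, 5.70, 1.58 and 1.07 RPKM in order of stage from E-L31 to E-L38. All 27 named transcripts that fell in the step were lower at E-L38, with and without the GT sample of 2011 labelled E-L31. Of these, 25 had a higher mean at E-L31 than at E-L35, the exceptions being VviUGT85A2L2 and VviUGT85A1L4, and 21 had a lower mean at E-L38 than at E-L36. Of the 6 that rose, 3 were called as higher at E-L38 than in the green berries of E-L31, namely the carotenoid cleavage dioxygenase 4-like transcript, VviGT14 and VviUGT85A1L1, with log2 ratios of 4.91, 4.85 and 3.95. VviUGT85A1L3 was the fourth without that sample. The mean of the dioxygenase went on from 81.2 RPKM at E-L36 to 121 at E-L38, whereas that of VviGT14 went from 125 to 93.9.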

How the data were processed

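Berry RNA of 16 samples was sequenced as single libraries (E-L31, E-L36) or pairs of libraries (E-L35, E-L38). Per the file headers and the study's methods, reads were trimmed by the authors and mapped to Vitis vinifera RefSeq transcripts with CLC Genomics Workbench (version not given in the sources used here) with at most 2 mismatches. Reads that fitted more than 1 transcript were divided by the numbers of unique reads. The authors deposited total and unique read counts and RPKM values per transcript. Reads shared by close copies can therefore move between them. No genome build applies to transcript counts, and no coordinates are given.

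Total read counts were summed over the libraries of a sample, and the RPKM printed was the mean of the RPKM values of its libraries. Sums ranged from 4698604 to 26627006 in the 8 samples of the step, and lower sums leave scarce transcripts with larger counting errors. The step was tested with edgeR 4.0.16 (R 4.3.3) by the quasi-likelihood test with TMM scaling and terms for region, vintage and stage, on 17190 transcripts that reached 10 counts in 4 or more of the 8 samples, with 4 residual degrees of freedom. Calls needed a Benjamini-Hochberg adjusted p up to 0.05 and a change of 1 or more on the log2 scale. For differences between regions or vintages the adjusted p alone was used. SE was the log2 ratio divided by the square root of the F statistic, in absolute value. The study describes its sampling as biological repeats, and the paired libraries summed here may be such repeats, but the labels do not say so. The p-values rest on 1 summed sample per region, vintage and stage. They measure the spread that is left between these samples after the terms for region, vintage and stage. Samples of the same region and vintage deviated together, with correlations of 0.534, 0.552, 0.364 and 0.344 over 9872 transcripts, and the region and vintage pair was used as a block in an alternative. Whether the 4 values of each stage overlapped, and the ratios of pairs, were read after TMM scaling.

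DESeq2 1.42.0, limma 3.58.1 on log2 of RPKM plus 1 or 0.1, other scalings and filters, unique reads, single libraries, all 16 samples and leaving out each sample were run as alternatives. The procedure was tested on simulated data.

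Names came from the study's lists and RefSeq symbols. Named transcripts were called members of the lists, the 12 largest rises and falls with a name and the 2 largest without one, among calls with a mean of at least 5 RPKM in the higher stage and 1 direction in all 4 pairs, the 5 most abundant, and the 4 with the smallest p in each direction of the region difference. Others were given where a list is described. The samples and lists were chosen with earlier results of these data known. Of 20 lists by name pattern, 12 held no member. Promoter and protein motifs were not analysed here.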

Additional observations from a re-analysis of the deposited data

Results flagged for a closer look

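Among 102 groups of 4 values at E-L35 or E-L36 (RPKM of the transcripts chosen for description, with or without a name, and 2 measures of depth), 7 held a value far from the other 3 by Dixon's test, where chance gives about 5 percent of groups. At E-L36 these were the CL sample of 2011 for the carotenoid cleavage dioxygenase 4-like (XM_002270125.1, 107.9 RPKM) and GATA 16-like (XM_002275462.2, 3.24 RPKM) transcripts, the GT sample of 2011 for ERF017-like (XM_002277585.1, 0.559 RPKM) and XM_002285161.2 (17.9 RPKM), and the GT sample of 2010 for PHYA (XM_002278574.2, 9.57 RPKM). At E-L35 they were the GT sample of 2010 for HAT3-like (XM_002272716.2, 4.39 RPKM) and the TPS-b myrcene synthase (XM_003634850.1, 3.01 RPKM).

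Among the transcripts examined for these flags, the step differed between regions or vintages in 7 cases by DESeq2, though not by edgeR. Over all 17190 transcripts tested, DESeq2 called 102 with a larger ratio in GT and 48 with a smaller one. For the vintages it called 23 with a larger ratio in 2011 and 2 with a smaller one. The log2 ratio in GT minus that in CL was 1.81 for the carotenoid cleavage dioxygenase 4-like transcript (XM_002270125.1, adjusted p = 0.000525), 2.12 for HAT14-like (XM_002268142.1, adjusted p = 8.99e-05), 2.37 for ERF 2-like (XM_002270545.2, adjusted p = 3.32e-05), 2.50 for PR10.2 (XM_002274206.2, adjusted p = 0.00187), 1.22 for NF-Y A-1-like (XR_077959.2, adjusted p = 0.0377) and -1.08 for TCP 7-like (XM_002268022.2, adjusted p = 0.0417). The ratio in 2011 minus that in 2010 was 3.45 for XM_002285161.2 (adjusted p = 0.0383). The edgeR adjusted p-values of the 6 regional differences were 0.260 to 0.401.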

How the results depend on the processing

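The counts of calls depended on the samples and the model more than on the filter. Leaving out 1 sample at a time gave 0 to 278 transcripts that rose and 0 to 807 that fell in the step, 0 to 865 and 0 to 1522 for E-L35 over E-L31, 0 to 23 and 0 to 61 for E-L38 over E-L36, 829 to 1720 and 1784 to 2824 for E-L38 over E-L31, and 0 to 1 regional differences with a smaller ratio in GT. For the step, the numbers that rose and fell were 320 and 849 by DESeq2, 126 and 1314 with library totals, 91 and 765 by limma with 1 RPKM added, 115 and 1239 with 0.1 RPKM added, 425 and 870 by adjusted p alone, 10 and 65 in a fit of all 16 samples, 20 and 103 with these as 8 groups, and 1 and 1 by Bonferroni adjustment. They were 0 and 0 in CL or GT alone, 47 and 206 in 2010 and 1 and 0 in 2011. With region and vintage pairs as a replicate block they were 159 and 532, and with no replicate block 3 and 55. The block ended the call of 3 of the 33 named transcripts, ERF017-like, VviUGT85A1L10 and XM_003634368.1, and of no other. DESeq2 gave 488 and 1107 for E-L35 over E-L31, 159 and 417 for E-L38 over E-L36, 102 and 48 for the regional and 23 and 2 for the vintage difference. Of the 33 named calls, all 33 held by DESeq2, on unique reads and without a filter, 30 with library totals, 27 by limma with 1 RPKM added, and 0 without the E-L35 samples of CL 2010, GT 2010 or GT 2011. All 33 kept their direction in every alternative run, which follows in large part from their choice as calls on these same samples. The cause of these differences was not tested, and fits that leave samples out also hold fewer samples.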
